A study of Mus musculus with 3 samples.

Results

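The respiratory chain is described here through 94 genes, 85 in the nuclear genome and 9 in the mitochondrial genome. They were taken by symbol: Nduf, Uqcr, Atp5, Sdha to Sdhd, Cox4 to Cox8 with a letter or i after the digit, and the mt-Nd, mt-Co, mt-Atp and mt-Cytb genes. The symbols matched 127 of the 55357 features measured. A gene was kept when its summed UMIs (unique molecular identifiers, 1 per captured RNA end) reached 10 counts per 1000000 UMIs (CPM) in at least 1 library, all barcodes of a library summed. Kept nuclear genes fell to complex I (43, of which 6 are Ndufaf assembly factors), complex II (4), complex III (8), complex IV (13) and complex V (17). Kept mitochondrial genes fell to complex I (6), III (1), IV (1) and V (1). Of the 33 genes under the floor, 4 are mitochondrially encoded, 14 are pseudogenes by symbol and 15 are other nuclear genes. The kept gene nearest the floor was Ndufaf6, at 9.65 CPM in the PBS library, 11.6 in the LPS library and 11.5 in the LPS + Reg3g library, and it was the only kept gene under 10 CPM in any library. The nearest below it were Ndufa12-ps, at 2.23, 7.49 and 5.51 CPM in that order, and Ndufaf1, at 7.33, 7.05 and 7.09 CPM.

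The cells came from lungs of wild-type C57BL/6 mice, were sorted as live CD45+ Ly6G- F4/80+ cells with CD11b or CD11c, and were profiled by droplet sequencing of RNA 3' ends in 3 libraries. The PBS mice received 50 µL of phosphate-buffered saline into the trachea, the LPS mice 4 mg/kg of lipopolysaccharide (LPS, a bacterial cell wall component that inflames the lung) in that volume, and the LPS + Reg3g mice this dose plus the antimicrobial lectin Reg3g, of which they got 6 µg. Lungs were taken after 24 h, and each library holds cells of 3 pooled mice, so every group is 1 library. The question set by the design is what LPS does to lung macrophages and how Reg3g given with it alters that.

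Oxidative phosphorylation is carried out by 5 complexes of the inner mitochondrial membrane. Complexes I and II take electrons from NADH and succinate, complex III passes them to cytochrome c, complex IV reduces oxygen, and complex V makes ATP from the proton gradient. All complex II subunits are encoded in the nucleus, whereas the others combine nuclear subunits with a few core subunits made from mitochondrial DNA. The nuclear genes are transcribed one by one, and the mitochondrial ones as long polycistronic RNAs that are cut into messengers by mitochondrial enzymes. In macrophages, stimulation with LPS is known for a shift of energy metabolism toward glycolysis.

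With 1 library per group no test was possible. Values are UMI sums of a cell class in a library, with 95% intervals that cover counting error only and not the differences among mice, and a gene is counted as past the fold when 2 libraries differ at least 1.5-fold. A 3' end method yields 1 UMI per molecule whatever its length, so CPM is not scaled by gene length. The deposited totals were 52354207, 70474636 and 60942042 UMIs over 8475, 15015 and 10213 barcodes in the PBS, LPS and LPS + Reg3g libraries, which shared 28 to 37 barcodes pairwise. After filtering, 7860, 13015 and 9281 cells were left. Over these cells, the genes of the sort gate stood at 847, 523 and 612 CPM for Ptprc (CD45), at 109, 162 and 170 CPM for Adgre1 (F4/80) and at 0.184 to 1.12 CPM for Ly6g. The largest classes were alveolar macrophage-like (3561, 5011 and 4102 cells) and monocyte-like (2270, 5989 and 4165 cells). Their median depths were 7675, 6052 and 7564.5 UMIs per cell, and 3460, 3213 and 4026.

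The mitochondrial messengers can be read only as far as their sequence is distinct from copies of mitochondrial DNA in the nuclear genome, so the stretches that bear on this are shown first. Each is 91 bases long, the length of the sequenced cDNA read, and comes from the GRCm38 genome. Those of mt-Nd1, mt-Cytb and mt-Co1 are the last 91 bases of the gene. Capitals mark bases at which a copy differs from the mitochondrial gene.
mt-Nd1 (chrM:3617-3707, plus strand): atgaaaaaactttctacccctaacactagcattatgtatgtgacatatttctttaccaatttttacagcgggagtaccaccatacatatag
mt-Cytb (chrM:15198-15288, plus strand): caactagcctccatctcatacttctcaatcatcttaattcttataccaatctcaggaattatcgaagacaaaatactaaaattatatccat
mt-Co1 (chrM:6782-6872, plus strand): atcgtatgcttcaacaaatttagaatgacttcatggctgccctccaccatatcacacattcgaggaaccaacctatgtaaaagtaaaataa
Gm13340 (chr2:22588103-22588193, minus strand): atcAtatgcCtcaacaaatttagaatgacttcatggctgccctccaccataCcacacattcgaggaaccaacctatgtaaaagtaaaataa
Gm29216 (chr1:24615706-24615796, minus strand): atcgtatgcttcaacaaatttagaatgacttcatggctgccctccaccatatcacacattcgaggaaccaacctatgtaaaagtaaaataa
mt-Co3 (chrM:9299-9389, plus strand): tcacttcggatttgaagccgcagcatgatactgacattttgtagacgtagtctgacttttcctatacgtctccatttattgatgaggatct
Gm28437 (chr1:24613189-24613279, minus strand): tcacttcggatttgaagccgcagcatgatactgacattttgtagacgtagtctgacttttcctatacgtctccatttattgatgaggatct

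In these stretches Gm13340, an annotated pseudogene, differs from mt-Co1 at 3 bases, while Gm29216 is identical to mt-Co1 and Gm28437 to mt-Co3. The share of all 91-base windows of a mitochondrial gene that also stand in the transcript of another annotated gene (GENCODE M21) was 0% for mt-Nd1, mt-Cytb, mt-Nd6 and mt-Atp8, 0.288% for mt-Nd5, 4.11% for mt-Nd2, 33.1% for mt-Co1, 61% for mt-Nd4 and 97.7% for mt-Nd3. For the 4 mitochondrial genes under the floor it was 98.6% (mt-Nd4l), 99.5% (mt-Atp6 and mt-Co2) and 99.9% (mt-Co3). Their copies lie side by side on chromosome 1 and are 100% identical over 294 to 783 compared bases. The plot of the 13 mitochondrial messengers shows the contrast: the 9 kept genes, of which mt-Nd3 alone shares over 61% of its windows, reached 11.3 CPM or more in every library, and the 4 under the floor stood at 1.05 to 6.11 CPM. The copies themselves held few UMIs, at most 21 per library for those on chromosome 1 and 38 for Gm13340. The sources used here do not state how reads that match more than 1 gene were counted, and the part of this in these levels was not tested. The low levels of mt-Co2, mt-Co3, mt-Atp6 and mt-Nd4l are therefore not read as a measure of those messengers. The same limit falls on mt-Nd3, which passed the floor with 97.7% of its windows shared. Among nuclear members, 70 of 85 shared no window with another gene over the last 500 bases of their transcripts, and Ndufaf2, Uqcrc2 and Atp5o shared 100%, 100% and 65.1% of the windows searched.

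**Figure D1:**
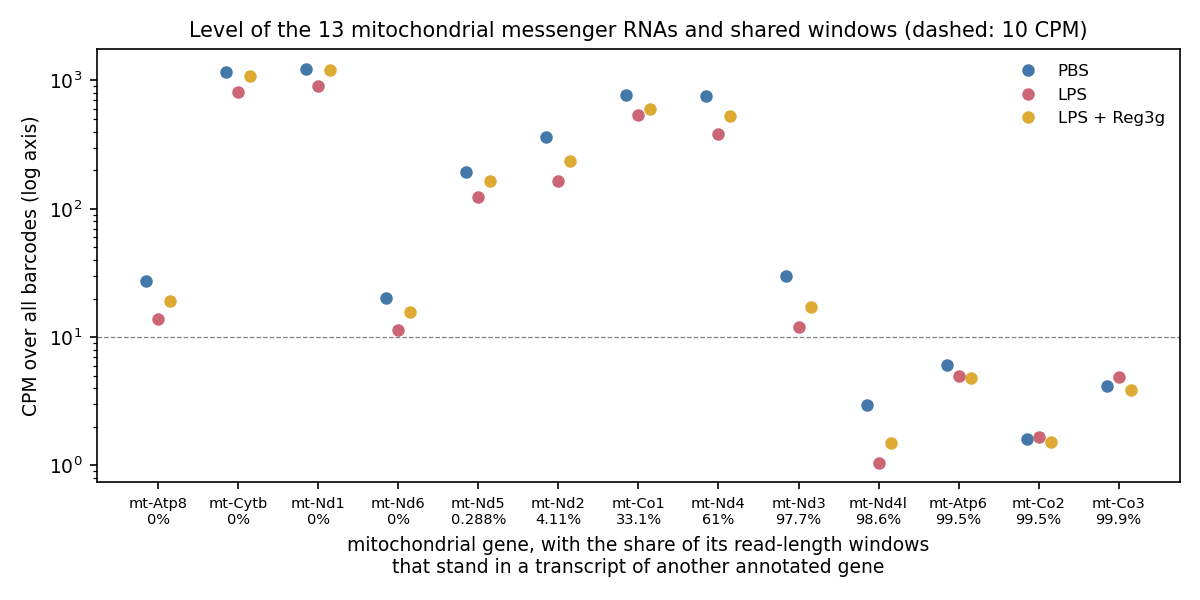
CPM (log axis) of each of the 13 mitochondrial messengers over all barcodes of the PBS, LPS and LPS + Reg3g libraries, 1 point per library, ordered by the share of 91-base windows that also stand in another annotated transcript (given under each name). The 4 genes under the dashed line at 10 CPM are those that share 98.6% or more of their windows.

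Across the cells of each library, mitochondrial and nuclear respiratory RNA differed in opposite directions. In alveolar macrophage-like cells the 85 nuclear members held 2.04% of UMIs after PBS, 2.31% after LPS and 2.15% after LPS + Reg3g. The 9 mitochondrial members held 0.495%, 0.296% and 0.377% in the same order. LPS thus had the highest nuclear and the lowest mitochondrial share, and the LPS + Reg3g library lay between the others on both. The ratio of mitochondrial to nuclear UMIs was 0.243 in the PBS library (95% interval 0.241 to 0.244), 0.128 in the LPS library (0.127 to 0.129) and 0.175 in the third (0.174 to 0.176). On the log2 scale the ratio differed by -0.92 (-0.93 to -0.91) between LPS and PBS, and by 0.45 (0.44 to 0.46) between LPS + Reg3g and LPS. These comparisons share the LPS library, so an unusual value in that library would give both with opposite signs, and no second library is at hand to tell.

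Monocyte-like cells had the same order of the ratio. Their nuclear share was 1.58% with PBS, 2.33% with LPS and 2.15% with LPS + Reg3g, and their mitochondrial share 0.333%, 0.291% and 0.378%. The nuclear difference between LPS and PBS was 0.56 on the log2 scale against 0.18 in alveolar macrophage-like cells, and the mitochondrial difference -0.19 against -0.74. Under median-of-ratios scaling, which leaves the ratio as it is, the nuclear differences were 0.53 and 0.43 in that order of classes and the mitochondrial ones -0.22 and -0.49. The ratios were 0.21, 0.125 and 0.176, a log2 difference of -0.75 (-0.78 to -0.73) for LPS against PBS and of 0.50 (0.48 to 0.52) for LPS + Reg3g against LPS. With LPS + Reg3g against PBS, the mitochondrial sum was lower in alveolar macrophage-like cells (log2 -0.39) and higher in monocyte-like cells (0.19), and the nuclear sum was 0.08 and 0.44 on that scale.

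Different clusters make up the monocyte-like class in the libraries: clusters 6 and 7 hold most of it with PBS, and clusters 0, 4, 8, 13 and 7 with LPS. Cluster 7, with nonclassical monocyte markers, had cells in every library (829, 257 and 264). There the nuclear share was 1.4%, 1.77% and 1.75%, the mitochondrial share 0.302%, 0.196% and 0.311% and the ratio 0.216, 0.111 and 0.177, the order of the whole class. Alveolar macrophage-like cells were also split by library, with cluster 2 holding most of the PBS cells and clusters 1, 3, 5 and 19 most of the LPS cells. Their cycling cells (cluster 15) came from all libraries (218, 105 and 111 cells) and had ratios of 0.215, 0.138 and 0.174, with nuclear shares of 2.09%, 2.08% and 2.11% that barely differed.

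**Figure D2:**
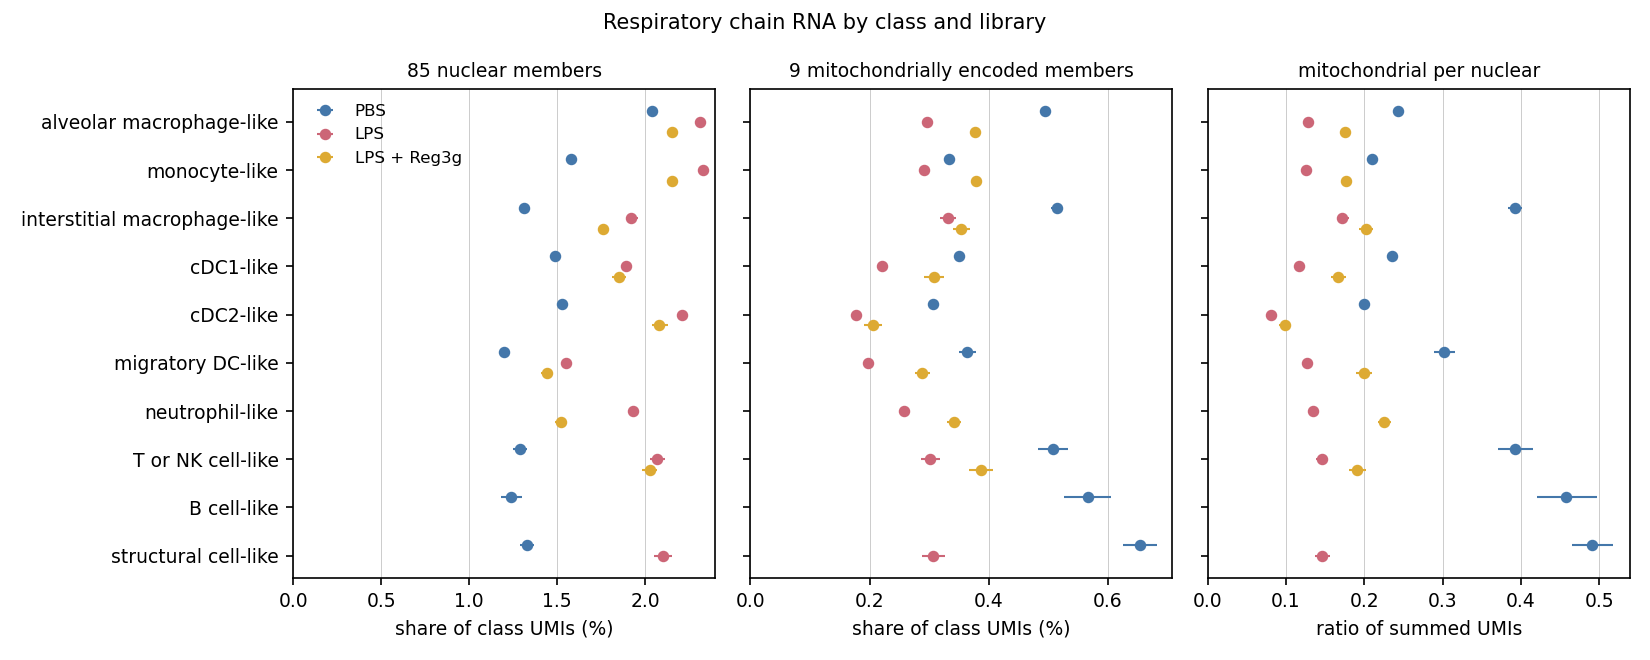
Share of class UMIs in the 85 nuclear members (left), in the 9 mitochondrially encoded members (middle), and the ratio of the sums (right) for each class of at least 50 cells in a library. Points are libraries and bars 95% intervals for counting error. With PBS the ratio runs from 0.2 to 0.491 over classes, with LPS from 0.0804 to 0.172.

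The smaller classes had the same order. The ratio was 0.392, 0.172 and 0.202 in interstitial macrophage-like cells, 0.235, 0.117 and 0.167 in type 1 conventional dendritic cell-like cells, and 0.2, 0.0804 and 0.0983 in type 2 conventional dendritic cell-like cells with PBS, LPS and LPS + Reg3g. Migratory dendritic cell-like cells had 0.302, 0.127 and 0.2, and T or NK cell-like cells 0.393, 0.146 and 0.191. In all 7 classes with cells from the 3 libraries, the LPS + Reg3g value lay between the others. Against PBS, LPS had the lower ratio in 8 of 8 classes, from -1.75 (structural cell-like) to -0.75 (monocyte-like) on the log2 scale. Against LPS, LPS + Reg3g had the higher ratio in 8 of 8, from 0.23 (interstitial macrophage-like) to 0.75 (neutrophil-like). The nuclear sum was higher with LPS than PBS in 8 of 8 classes (0.18 in alveolar macrophage-like to 0.68 in T or NK cell-like cells) and the mitochondrial sum lower in 8 of 8 (-1.09 to -0.19). With Reg3g added, the nuclear sum was lower in 8 of 8 (-0.35 to -0.03) and the mitochondrial sum higher in 8 of 8 (0.10 to 0.55). Classes of a library come from the same mice and the same droplet run, so they are not replicates.

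Other RNAs that follow cell handling and RNA quality moved with the mitochondrial share for LPS against PBS. In alveolar macrophage-like cells the nuclear ribosomal RNA Rn18s-rs5 took 5.96%, 3.33% and 4.16% of UMIs with PBS, LPS and LPS + Reg3g, against 5.41%, 3.14% and 2.87% in monocyte-like cells, and Malat1, a nuclear retained RNA, stood at 11900, 6640 and 7100 CPM in the former and 11700, 8930 and 8870 in the latter. With Reg3g added to LPS, both RNAs and the mitochondrial share were higher in alveolar macrophage-like cells. In monocyte-like cells the mitochondrial share was higher and neither RNA was. The mitochondrial ribosomal RNAs stood at 998, 326 and 474 CPM (mt-Rnr1) and 1390, 638 and 813 CPM (mt-Rnr2) in alveolar macrophage-like cells. In monocyte-like cells they stood at 540, 387 and 533 CPM and at 1290, 806 and 1110 CPM. Of the list of stress genes and nuclear retained RNAs, 8 were measured in each class. With LPS, 8 of 8 were past the fold lower in alveolar macrophage-like cells, beside 29.5% of all genes. In monocyte-like cells 6 of 8 were, beside 18.7% of all genes. Among them were Jun, an immediate early gene, at 283 CPM with LPS against 1120 with PBS in alveolar macrophage-like cells, and Hspa1a, a heat shock gene, at 145 against 1310 in monocyte-like cells. With Reg3g added to LPS, 2 of 8 were past the fold lower in alveolar macrophage-like and 2 of 8 higher in monocyte-like cells. Over all genes these shares were 0.545% and 0.84%. Fth1, the ferritin heavy chain, took 1.87% of UMIs with PBS, 8.8% with LPS and 7.94% with LPS + Reg3g in alveolar macrophage-like cells and enters the total to which the other genes are scaled. The part of these RNAs in the mitochondrial difference was not tested. The club cell gene Scgb1a1, a sign of free epithelial RNA, stood at 63, 16.2 and 12.2 CPM in alveolar macrophage-like cells.

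Depth moved with the ratio too. When the cells of a class and library were ordered by UMIs and cut into 3 equal groups, the shallowest had the highest ratio in each library of alveolar macrophage-like cells. Over those groups the PBS ratio ran from 0.228 to 0.281, that of LPS + Reg3g from 0.16 to 0.203 and that of LPS from 0.12 to 0.152, without overlap between libraries. In monocyte-like cells it ran from 0.196 to 0.297, from 0.151 to 0.303 and from 0.114 to 0.181, with overlap. Cells of at least 2000 UMIs were also thinned to that depth, which left out the 35, 196 and 67 shallower alveolar macrophage-like cells of the PBS, LPS and LPS + Reg3g libraries. The log2 difference in this class was then -0.95 for LPS against PBS and 0.47 for LPS + Reg3g against LPS. A small unnamed cluster (number 16, with 137, 115 and 118 cells) was led by Scgb1a1 and by ribosomal and mitochondrial RNA, including mt-Nd2 and mt-Nd5. It was left out of the classes for its ribosomal and mitochondrial genes. Its ratio was 2.36, 1.19 and 1.4, far above that of any class.

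The single mitochondrial messengers are given first for complex I, whose membrane arm they form. In alveolar macrophage-like cells mt-Nd1 stood at 1290 CPM with PBS, 932 with LPS and 1170 with LPS + Reg3g. The corresponding levels were 374, 181 and 243 CPM for mt-Nd2, and 851, 399 and 532 CPM for mt-Nd4. For mt-Nd5 they were 201, 110 and 151 CPM. The low messengers mt-Nd3 (31.9, 13.3 and 16.5 CPM) and mt-Nd6, the one encoded on the light strand (18.4, 9.56 and 12.9 CPM), had the same order. Complex III's only mitochondrial subunit, cytochrome b, stood at 1280, 823 and 1070 CPM (mt-Cytb). The catalytic subunit of complex IV, mt-Co1, stood at 865, 484 and 562 CPM, and mt-Atp8 of complex V at 31.2, 13.3 and 17.5 CPM. All 9 were thus highest with PBS and lowest with LPS.

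In log2 ratios of LPS over PBS, the 9 ran from -1.27 (mt-Nd3; -1.44 to -1.10) to -0.47 (mt-Nd1; -0.50 to -0.45) in alveolar macrophage-like cells, with a median of -0.94. All but mt-Nd1 were past the fold lower: 8 of 9, beside 29.5% of the 7845 genes measured in this comparison. None was past the fold higher, beside 10.7% of all genes. The median over all measured genes was itself -0.25 in this comparison and 0.03 in monocyte-like cells. Median-of-ratios scaling, which sets that median near 0, raised each log2 value of alveolar macrophage-like cells by 0.25 and gave a mitochondrial median of -0.69. Under it, as under trimmed mean scaling, 7 of 9 were past the fold lower, and mt-Cytb was no longer so. The share of all genes past the fold was not computed under these scalings. The messengers did not differ equally. mt-Nd1 and mt-Cytb, which have no annotated copy, differed least (-0.47 and -0.64), but mt-Atp8, also without one, was at -1.23 and mt-Nd6 at -0.94. mt-Nd1 held 26.2% of the mitochondrial members' UMIs with PBS and 31.4% with LPS, and mt-Nd4 held 17.2% and 13.4%. With mt-Co1, mt-Nd4 and mt-Nd3 left out, so that no gene with a copy over 5% of its windows remained, the log2 difference of the mitochondrial to nuclear ratio was -0.81 in alveolar macrophage-like and -0.68 in monocyte-like cells, an alternative chosen after seeing the data.

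In monocyte-like cells the messengers parted. mt-Nd1 stood at 910, 876 and 1160 CPM and mt-Cytb at 793, 808 and 1070 CPM with PBS, LPS and LPS + Reg3g, log2 ratios of LPS over PBS of -0.06 (-0.09 to -0.02) and 0.03 (-0.01 to 0.07). mt-Co1 at 613, 563 and 630 CPM differed by -0.12. Past the fold lower were mt-Nd2 (249, 139 and 207 CPM; -0.84), mt-Nd3 (20.4, 11.4 and 17.3 CPM; -0.84) and mt-Nd4 (544, 349 and 485 CPM; -0.64), 3 of 9 beside 18.7% of 7661 genes. The others were mt-Nd5 (-0.27), mt-Nd6 (-0.49) and mt-Atp8 (-0.46). None was past the fold higher, beside 22.4% of all genes. The same 3 were past the fold lower in alveolar macrophage-like cells.

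In CPM, nuclear members as a group were little higher with LPS in alveolar macrophage-like cells and clearly higher in monocyte-like cells. In the former, 8 of 85 were past the fold higher and 2 lower, beside 10.7% and 29.5% of all genes, and their median log2 ratio was 0.10. A share of 8 of 85 is near the background for higher genes, whereas the 2 lower ones are few against it. Under median-of-ratios scaling, as under trimmed mean scaling, 25 were past the fold higher and 1 lower. The shares of all genes given here are for CPM and were not computed under these scalings, so they are no background for those counts. Under median-of-ratios scaling members whose log2 value lies between -0.25 and 0 turn positive. In monocyte-like cells 50 of 85 were past the fold higher and 4 lower, beside 22.4% and 18.7% of all genes, with a median of 0.65 against 0.03 for all genes. The 50 comprised 29 of complex I, 2 of complex II, 4 of complex III, 5 of complex IV and 10 of complex V. In cluster 7 alone, an alternative chosen after seeing the data, 25 nuclear members were past the fold higher, beside 17.1% of 7497 genes, and 5 mitochondrial ones lower, beside 20.8%. By summed UMIs the log2 difference was 0.17, 0.08, 0.28, 0.13 and 0.26 for the subunits of complexes I to V in alveolar macrophage-like cells and 0.59, 0.51, 0.37, 0.62 and 0.64 in monocyte-like cells. The log2 ratio was larger in monocyte-like than in alveolar macrophage-like cells for 79 of 85 nuclear and 9 of 9 mitochondrial members, a difference between classes that was not tested here or below. Those counts and the sums by complex are given for CPM alone. Median-of-ratios scaling raises alveolar macrophage-like values by 0.25 and lowers monocyte-like ones by 0.03. It gave nuclear medians of 0.35 in alveolar macrophage-like and 0.62 in monocyte-like cells. By complex, the median stayed larger in monocyte-like cells for all but complex III, at 0.53 and 0.50. Over all kept cells 11.6% of 8048 genes were past the fold higher and 22.2% lower with LPS.

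**Figure D3:**
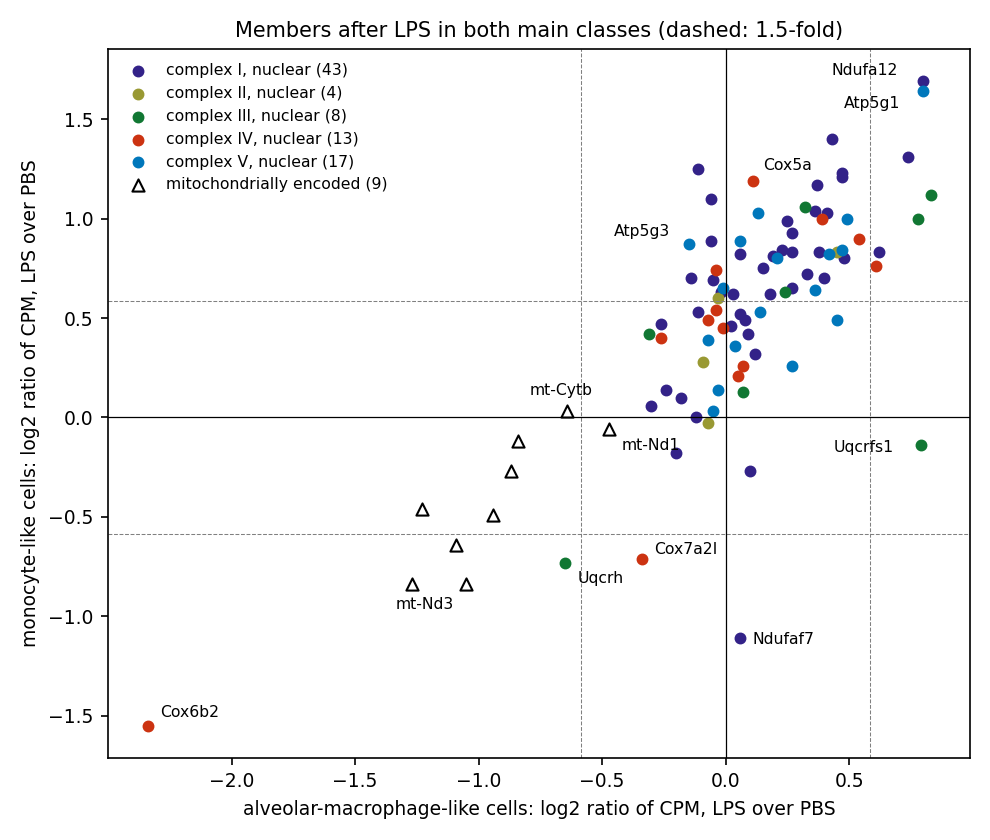
Log2 ratio of CPM, LPS over PBS, of each member in alveolar macrophage-like (x axis) and monocyte-like cells (y axis), colored by complex, with the 9 mitochondrially encoded members as open triangles and dashed lines at 1.5-fold. Most nuclear members lie above 0 on the y axis (77 of 85), and 8 of 9 triangles lie below 0 on it, down to -0.84, with mt-Cytb at 0.03.

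Complex I is the entry point for NADH electrons, and its nuclear subunits (Ndufa, Ndufb, Ndufc, Ndufs and Ndufv) summed to 0.548%, 0.616% and 0.566% of UMIs in alveolar macrophage-like cells and 0.448%, 0.673% and 0.611% in monocyte-like cells. Ndufa12, a subunit of the peripheral arm, stood at 47.3, 82.1 and 69.7 CPM with PBS, LPS and LPS + Reg3g in the former and at 19.6, 63.5 and 49.6 CPM in the latter. Its log2 ratio of LPS over PBS was 0.80 (0.70 to 0.89) and 1.69 (1.46 to 1.93), the highest of complex I in both. Ndufc1 differed between the classes, with 180, 243 and 210 CPM (0.43) in alveolar macrophage-like and 92.5, 244 and 195 CPM (1.40) in monocyte-like cells. Ndufs7, an iron-sulfur subunit, was past the fold higher in both, at 155, 238 and 211 CPM (0.62) and 107, 190 and 152 CPM (0.83). Subunits with high levels in alveolar macrophage-like cells were Ndufa2 (333, 441 and 387 CPM), Ndufb7 (261, 306 and 276 CPM) and Ndufa13 (258, 264 and 238 CPM), none past the fold there. All 3 were past the fold higher in monocyte-like cells (0.70, 0.84 and 0.62). Low log2 ratios were those of Ndufb3 (-0.30) in alveolar macrophage-like cells and of Ndufa6 (-0.27) and Ndufb1 (-0.18) in monocyte-like cells, none of them past the fold.

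The complex I assembly factors, proteins that build the complex without staying in it, were few and low. Ndufaf4 stood at 32, 53.3 and 47.1 CPM in alveolar macrophage-like (0.74) and at 11.9, 29.5 and 25.1 CPM in monocyte-like cells (1.31; 1.01 to 1.63), higher with LPS in both. Ndufaf7, a methyltransferase that acts on a complex I subunit, was past the fold lower in monocyte-like cells, at 52.5, 24.3 and 30 CPM (-1.11; -1.29 to -0.93) against 11.7, 12.2 and 10.2 CPM (0.06) in alveolar macrophage-like cells; whether the classes differ was not tested. Ndufaf8 stood at 78.2, 74.8 and 76 CPM and at 54.5, 101 and 88.7 CPM (0.89), and Ndufaf3 at 28.4, 27.4 and 26.5 CPM and at 24.9, 40.1 and 35.1 CPM (0.69). Of the 6 factors, 5 were past the fold higher and 1 lower in monocyte-like cells, beside 22.4% and 18.7% of all genes. In alveolar macrophage-like cells 1 was past the fold higher, beside 10.7% of all genes.

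Complex II, succinate dehydrogenase, also works in the tricarboxylic acid cycle. Sdha, its flavoprotein, stood at 120, 113 and 115 CPM in alveolar macrophage-like and 74.1, 90 and 90.1 CPM in monocyte-like cells. Sdhb, the iron-sulfur subunit, stood at 85.9, 117 and 103 CPM (0.45; 0.37 to 0.52) and at 76.9, 136 and 119 CPM (0.83; 0.70 to 0.95). The membrane anchors stood at 101, 99.2 and 108 CPM (Sdhc) and 46.5, 44.2 and 48.4 CPM (Sdhd) in alveolar macrophage-like cells. In monocyte-like cells they stood at 60.1, 91.1 and 94.4 CPM (0.60) and at 35.2, 34.4 and 37.8 CPM (-0.03). None of the 4 was past the fold in alveolar macrophage-like cells, beside 10.7% of all genes higher and 29.5% lower. Sdhb and Sdhc were past it higher in monocyte-like cells, beside 22.4% of all genes.

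Complex III, cytochrome bc1, had members at both ends. Uqcr10 stood at 256, 455 and 359 CPM (0.83; 0.79 to 0.87) in alveolar macrophage-like and 166, 361 and 283 CPM (1.12) in monocyte-like cells. Uqcrq, which like Uqcr10 is a small supernumerary subunit, stood at 335, 577 and 495 CPM (0.78) and 267, 533 and 457 CPM (1.00). Uqcr11 reached 1.06 in monocyte-like cells against 0.32. Uqcrh, the hinge subunit beside cytochrome c1, was past the fold lower in both classes, at 458, 291 and 282 CPM (-0.65; -0.69 to -0.61) and at 608, 366 and 359 CPM (-0.73; -0.78 to -0.68). Uqcrfs1, the Rieske iron-sulfur protein, stood at 156, 270 and 265 CPM (0.79) in alveolar macrophage-like but 171, 155 and 163 CPM (-0.14) in monocyte-like cells. Uqcrb had the reverse signs, at 301, 242 and 249 CPM (-0.31) and 137, 184 and 184 CPM (0.42).

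Complex IV, cytochrome c oxidase, holds the highest nuclear members. Cox4i1 stood at 1200, 1250 and 1130 CPM in alveolar macrophage-like cells (0.05) and at 1030, 1200 and 1100 CPM in monocyte-like cells (0.21), so it differed little in either. Cox5a stood at 1060, 1150 and 1070 CPM (0.11) against 411, 935 and 900 CPM (1.19; 1.13 to 1.24). Cox8a was past the fold higher in both, at 687, 1050 and 918 CPM (0.61) and 648, 1100 and 952 CPM (0.76). Cox7a2 and Cox5b had log2 ratios of 0.90 and 1.00 in monocyte-like cells against 0.54 and 0.39 in alveolar macrophage-like cells. Cox7a2l, a supercomplex assembly protein related to Cox7a2, was lower with LPS, at 381, 302 and 296 CPM (-0.34) and 505, 309 and 323 CPM (-0.71; -0.76 to -0.65). Cox6a1 stood at 286, 239 and 241 CPM (-0.26) in alveolar macrophage-like and 188, 248 and 252 CPM (0.40) in monocyte-like cells.

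Cox6b2 had the lowest log2 ratio of all members in both classes. It is the isoform of subunit 6b known from testis. In alveolar macrophage-like cells it stood at 111 CPM with PBS, 22 with LPS and 21.5 with LPS + Reg3g, a log2 ratio of -2.34 (-2.47 to -2.22) for LPS over PBS and of -0.03 (-0.19 to 0.13) for LPS + Reg3g over LPS. The common isoform Cox6b1 stood at 633, 618 and 578 CPM there. Cox6b2 thus made up 15% of Cox6b UMIs with PBS, 3.43% with LPS and 3.59% with LPS + Reg3g. With each cell thinned to 2000 UMIs, a Cox6b2 UMI was present in 19.2% (17.9 to 20.5), 4.86% (4.27 to 5.51) and 4.21% (3.61 to 4.88) of alveolar macrophage-like cells, and unthinned in 48.8%, 11.6% and 13.5%. Left out as shallower were 35, 196 and 67 of these cells. Monocyte-like cells had 3.27%, 1.3% and 1.13% after thinning (5.46%, 1.95% and 2.23% before), with 433, 1373 and 627 cells left out, and 16, 5.44 and 5.34 CPM (-1.55 for LPS over PBS). In lymphoid cells, taken as the measure of free RNA, the thinned shares were 1.12%, 4.76% and 0% of 89, 84 and 66 cells (1.83%, 5.11% and 0.847% before thinning), with median depths of 2127, 1900.5 and 2326 UMIs and upper limits of 6.1%, 11.7% and 5.44%. The shares of monocyte-like cells lie under those limits and are not told apart from free RNA. With so few lymphoid cells the limits are wide, so they cannot show that a share is background. Of the alveolar macrophage-like shares, the PBS one stands above all 3 limits and the others lie under that of their own library.

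**Figure D4:**
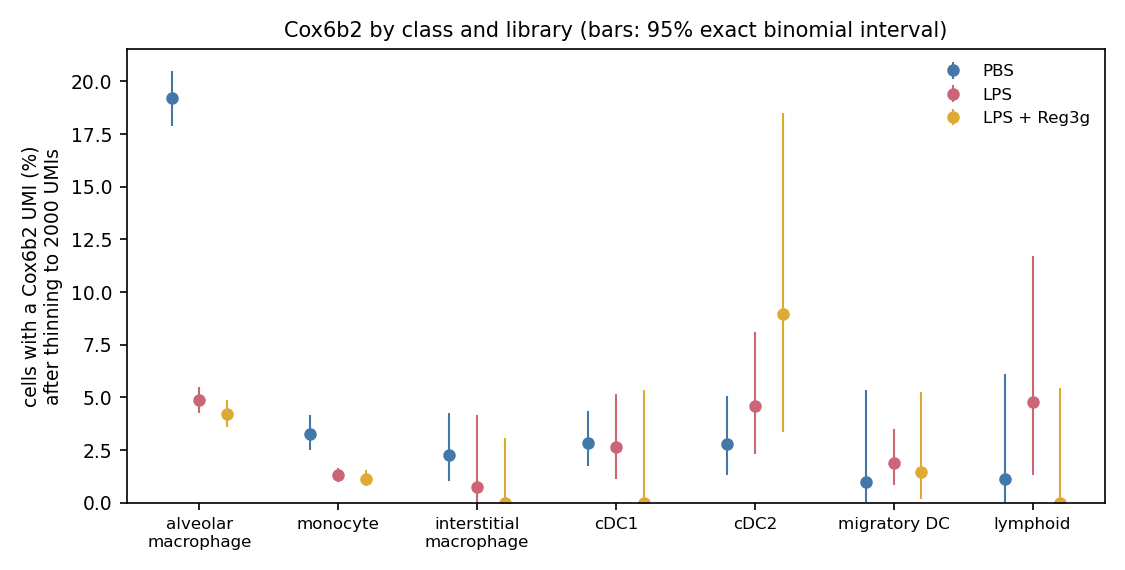
Share of cells with a Cox6b2 UMI after thinning each cell to 2000 UMIs, by class and library, with exact 95% binomial intervals. Cells with fewer UMIs were left out. Alveolar macrophage-like cells stand at 19.2% with PBS and at 4.86% and 4.21% with LPS and LPS + Reg3g, whereas the other classes lie at 8.96% or less.

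Other tissue isoforms were rare. Cox7a1, the heart and muscle form, had 237, 74 and 67 UMIs in alveolar macrophage-like cells, which is 1.84%, 0.366% and 0.348% of Cox7a1 and Cox7a2 together. After thinning, 1.62%, 0.519% and 0.446% of these cells had a Cox7a1 UMI, and 1 of 89, 0 of 84 and 0 of 66 lymphoid cells did (upper limits of 6.1%, 4.3% and 5.44%). Its shares are not told apart from free RNA. Cox6a2, likewise a heart and muscle form, had 7, 183 and 92 UMIs there (0.248, 5.91 and 2.9 CPM), so it was highest with LPS but under the floor. Cox4i2 had 9, 2 and 2 UMIs and Ndufa4l2 0, 2 and 0. Cox8b had 0, 0 and 1, and Cox8c none in either main class.

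Complex V, the ATP synthase, had 17 nuclear members. With LPS, 10 were past the fold higher in monocyte-like cells, beside 22.4% of all genes. In alveolar macrophage-like cells 1 was, beside 10.7% of all genes. Atp5g1, one of the genes for the membrane ring subunit c, stood at 275, 478 and 466 CPM (0.80; 0.76 to 0.83) in alveolar macrophage-like and 134, 417 and 372 CPM (1.64; 1.55 to 1.73) in monocyte-like cells. Atp5g3, which encodes the same mature protein, stood at 432, 389 and 395 CPM (-0.15) and 166, 302 and 297 CPM (0.87). The Atp5g1 part of subunit c UMIs was therefore 37.8%, 53.8% and 52.8% in alveolar macrophage-like cells and 43.1%, 56.6% and 54% in monocyte-like cells, in the order PBS, LPS and LPS + Reg3g. Atp5g3 was the main subunit c gene with PBS and Atp5g1 with LPS in both classes. The catalytic subunits stood at 492, 693 and 645 CPM (Atp5b; 0.49) and 437, 562 and 547 CPM (Atp5a1; 0.36) in alveolar macrophage-like cells, with log2 ratios of 1.00 and 0.64 in monocyte-like cells. Atp5e, the highest of the complex, stood at 614, 837 and 775 CPM (0.45) and 611, 859 and 801 CPM (0.49), and Atp5h at 440, 424 and 421 CPM (-0.05) and 450, 460 and 448 CPM (0.03). Atpif1, the ATPase inhibitor, lies outside the symbol rule. It stood at 337, 283 and 246 CPM (-0.25) and at 117, 271 and 204 CPM (1.21).

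With Reg3g added to LPS, the mitochondrial members were higher throughout and the nuclear ones differed little. In alveolar macrophage-like cells all 9 mitochondrial members were higher than with LPS alone, with log2 ratios from 0.22 (mt-Co1; 0.19 to 0.25) to 0.45 (mt-Nd5; 0.39 to 0.52) and a median of 0.39. None reached the fold, beside 0.517% of 7162 genes past it higher and 0.545% lower. In monocyte-like cells all 9 were higher too, from 0.16 (mt-Co1; 0.13 to 0.20) to 0.62 (mt-Nd6; 0.39 to 0.85), with a median of 0.47. There mt-Nd6, mt-Atp8 (0.61) and mt-Nd3 (0.60) were past the fold higher, beside 0.84% of 7377 genes higher and 0.84% lower. These 3 had 258 to 395 UMIs in that class of either library, and their intervals reach below the fold. Under median-of-ratios scaling none was past it. In cluster 7 alone, with few cells of either library, 6 of 9 were past it, beside 18.1% of 7372 genes higher and 13.9% lower. The mitochondrial ribosomal RNAs had medians of 0.44 and 0.46 in alveolar macrophage-like and monocyte-like cells. Over all kept cells 0.403% of 7440 genes were past the fold higher and 1.12% lower.

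No nuclear member was past the fold in either class with Reg3g added. Of the 85, 66 were below 0 in alveolar macrophage-like cells (median -0.09, against 0.03 for all genes), and 66 of 84 in monocyte-like cells (median -0.12, against 0.04). The lowest in alveolar macrophage-like cells was Uqcr10 at -0.34 (-0.38 to -0.30), with Ndufa3 at -0.26 and Ndufa11 at -0.24. In monocyte-like cells the lowest among members at 50 CPM or more were Ndufa12 (-0.36; -0.48 to -0.24), Uqcr10 (-0.35; -0.40 to -0.30), Ndufa5 and Ndufc1 (both -0.32), Ndufs7 (-0.31) and Atp5mpl (-0.29). Uqcr10 and Ndufa12 were also among the highest with LPS over PBS, but both comparisons use the LPS library. Cox5a and Atp5g1, at 1.19 and 1.64 with LPS over PBS in monocyte-like cells, stood at -0.05 and -0.16 with LPS + Reg3g over LPS. Complex II had medians of 0.07 and 0.03 in alveolar macrophage-like and monocyte-like cells, with 3 of 4 members above 0 in each. Sdha stood at 0.02 and 0.00, and Sdhb was lower with Reg3g, at -0.18 and -0.20.

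**Figure D5:**
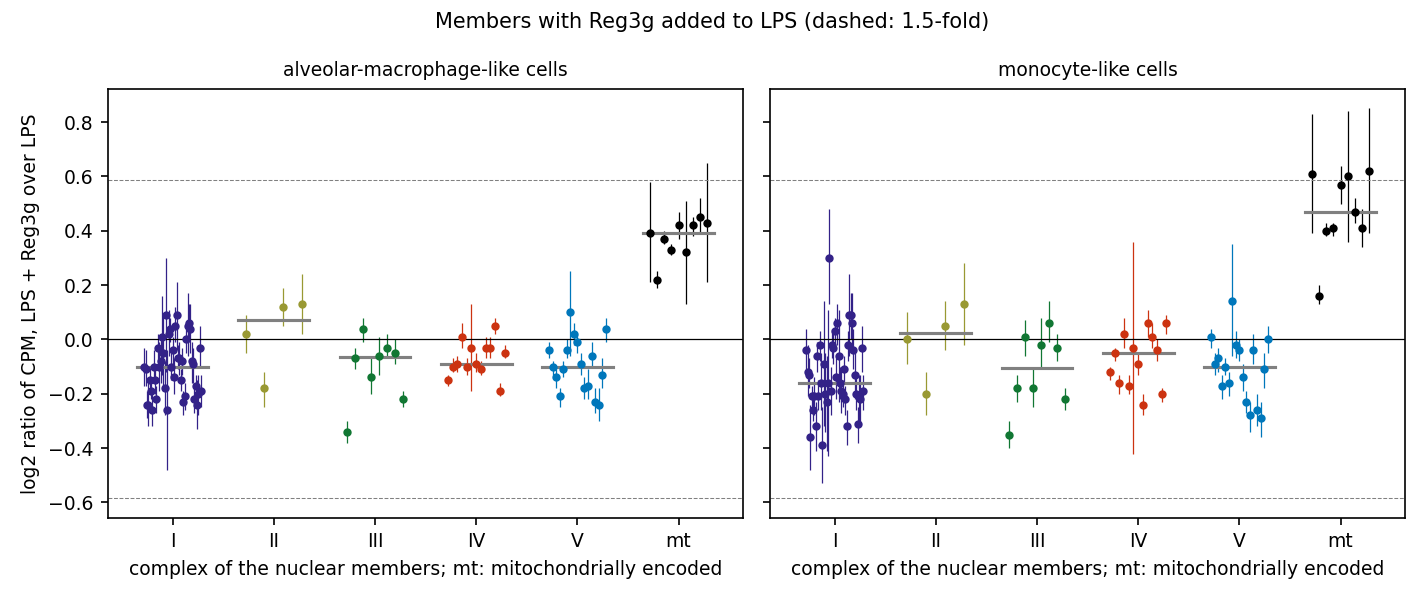
Log2 ratio of CPM, LPS + Reg3g over LPS, of each member by complex, with 95% intervals for counting error, the median of each group as a grey line and dashed lines at 1.5-fold. The mitochondrially encoded members lie at 0.22 to 0.45 in alveolar macrophage-like and 0.16 to 0.62 in monocyte-like cells, whereas nuclear members lie at -0.34 to 0.13 and -0.39 to 0.30.

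Lists of other mitochondrial genes set the members in context. Of the nuclear genes for mitochondrial transcription and replication, 6 were measured in alveolar macrophage-like cells with LPS against PBS, none past the fold higher, 2 lower, with a median of -0.53. In monocyte-like cells 2 of 7 were lower and the median was -0.28. For all genes the shares past the fold were 10.7% higher and 29.5% lower in alveolar macrophage-like cells and 22.4% and 18.7% in monocyte-like cells, so 2 of 6 and 2 of 7 are near the background. Genes for mitochondrial RNA processing had 2 of 14 higher (median 0.19) and 5 of 14 higher (median 0.38), with none lower. Slirp, which stabilizes mitochondrial messengers, stood at 81.8 CPM with LPS against 59.1 with PBS (0.47) and 95.5 against 53 (0.85). The list of nuclear regulators of respiratory genes had 3 of 9 lower in alveolar macrophage-like cells, again near the 29.5% of all genes, and none of 7 past the fold in monocyte-like cells, with Yy1 at -0.31 and 0.03. Mitochondrial ribosomal proteins, which translate the mitochondrial messengers, had 10 of 76 higher and 2 lower (median 0.17) against 49 of 75 higher and 1 lower (median 0.84). Mrpl52 led them in alveolar macrophage-like cells at 378 against 116 CPM (1.71), and Mrpl12 stood at 135 against 43.1 CPM (1.65) in monocyte-like cells.

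For the further lists with LPS against PBS, the background is again 10.7% of all genes higher and 29.5% lower in alveolar macrophage-like cells. In monocyte-like cells it is 22.4% and 18.7%. Assembly factors outside the symbol rule had 4 of 32 higher and 3 lower in alveolar macrophage-like and 11 of 30 higher in monocyte-like cells, where Sdhaf1, a complex II assembly factor, stood at 129 against 36.4 CPM (1.83). Among electron carriers and exchangers, 4 of 21 were higher and 2 lower, and 8 of 19 higher. Cycs, cytochrome c, stood at 302 against 185 CPM (0.71) in alveolar macrophage-like cells, and Cyc1, cytochrome c1 of complex III, at 136 against 53 CPM (1.36) in monocyte-like cells. Ucp2, an inner membrane carrier, was lower at 642 against 1190 CPM (-0.89) in alveolar macrophage-like cells. Genes of the tricarboxylic acid cycle had 2 of 19 higher and 1 lower, and 7 of 19 higher, with Mdh2 at 0.73 and 1.13. In alveolar macrophage-like cells the 4 of 32 assembly factors and 2 of 19 cycle genes are near the background for higher genes. The list of mitochondrial dynamics and mitophagy, which holds some import genes, had 3 of 19 higher and 3 lower, and 7 of 17 higher and 1 lower, with Timm23 at 1.10 and 0.93. Hypoxia-response genes acting on the chain had 1 of 5 lower, and 2 of 5 higher and 1 lower. With Reg3g added to LPS, none of the genes of these lists was past the fold except 1 hypoxia-response gene, which was lower in monocyte-like cells. Over all genes 0.517% were higher and 0.545% lower in alveolar macrophage-like cells, and 0.84% and 0.84% in monocyte-like cells. At such shares, lists of this size hold few genes past the fold.

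The promoters of the nuclear members were searched for letters of factors known to act on respiratory genes, from 250 bases before to 50 after the start, in RefSeq (GRCm38.p6), where 72 of 85 members had an entry. The NRF1 letters (GCGCA, any base, then GCGC), on either strand as for the others, stood in 18 of 72 (25%) against 5.19% of 27025 genes. The YY1 letters AAGATGGCG stood in 8 (11.1% against 1.64%), the CREB letters TGACGTCA in 4 (5.56% against 2.03%), the GABP letters CCGGAAGT in 5 (6.94% against 4.31%) and the SP letters GGGCGGGG in 14 (19.4% against 19.6%). Stretches of 60 bases with the NRF1 letters in capitals are shown for 3 complex I genes that were past the fold higher in monocyte-like cells and for Sdhd, which was not.
Ndufaf4 (chr4:24897945-24898004, strand plus): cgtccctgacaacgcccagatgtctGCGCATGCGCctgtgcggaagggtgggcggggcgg
Ndufs5 (chr4:123718250-123718309, strand minus): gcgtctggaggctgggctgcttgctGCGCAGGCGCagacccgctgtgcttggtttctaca
Ndufa5 (chr6:24527682-24527741, strand minus): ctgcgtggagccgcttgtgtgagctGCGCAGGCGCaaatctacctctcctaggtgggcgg
Sdhd (chr9:50603894-50603953, strand minus): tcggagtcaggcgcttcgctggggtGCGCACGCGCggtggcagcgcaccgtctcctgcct

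The log2 ratios in monocyte-like cells were 1.31 (Ndufaf4), 1.23 (Ndufs5), 1.21 (Ndufa5) and -0.03 (Sdhd). These genes were picked by their ratios, and the letters also stand before others that differed little, such as Atp5h (0.03). The median log2 ratio of members with and without the NRF1 letters was 0.64 and 0.75 in monocyte-like cells. It was 0.12 and 0.11 in alveolar macrophage-like cells. A match of letters is a description of the sequence and shows neither binding nor its effect.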

How the data were processed

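The authors deposited whole-number UMI counts per gene and barcode for 3 libraries. Per the file headers they were made by Cell Ranger 9.0.1. The submitters' processing notes name bcl2fastq 5.0.1, Seurat 4.4.0 and the mm10 build. The gene annotation and the handling of reads that match more than 1 gene are not given in the sources used here.

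Barcodes with under 500 genes, under 1000 UMIs or over 15% mitochondrial UMIs were removed (343, 1135 and 544), then the highest Scrublet doublet scores, 0.4% of barcodes per 1000 barcodes (272, 865 and 388). The libraries were clustered together with scanpy 1.11.5 and leidenalg 0.10.2 in Python 3.11.15 (counts scaled to 10000, 2000 variable genes without the members, 30 components, 15 neighbours, resolution 1). Of 23 clusters, 21 were named by their markers and are called "-like". The marker lists came from the labels and textbook knowledge, whereas the naming rule was set after the clusters were seen. It required at least 3 detected markers, under 3 mitochondrial or ribosomal RNAs among the 10 leading genes and a median doublet score under 0.1. A shallow cluster also needed an own marker among those 10. Leading markers of another type did not bar a name. Thus 2 clusters stayed unnamed, number 16 for mitochondrial or ribosomal RNA and number 18 for doublet scores.

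UMIs were summed per class and library and scaled to CPM. Intervals are 95%: exact Poisson for CPM, conditional binomial for ratios, Clopper-Pearson for shares and log odds for the mitochondrial to nuclear ratio. They treat UMIs as independent molecules. The interval of a ratio was tried on simulated Poisson counts. For alveolar macrophage-like cells, LPS against PBS (7845 genes), it held the true value for 95% of unchanged genes, 97% of those changed 1.5-fold and 95% of those changed 2-fold. At 2-fold it held for 91% in monocyte-like cells, LPS against PBS (7661 genes), and for 88% in alveolar macrophage-like cells, LPS + Reg3g against LPS (7162 genes). Poisson draws follow the model that the intervals assume. They check the calculation only and say nothing of the spread among cells or mice. A gene entered a comparison with at least 10 CPM in either library. Nothing in the labels gives a second library per group, so no test was run.

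Named members are the mitochondrial ones, complex II, the isoform sets and, per complex, the 3 highest by mean CPM and the 2 highest and 2 lowest ratios per class and comparison among members with at least 50 CPM. Other lists give up to 3 members each. A few others are named to complete a set or for a value that stood out, and those were chosen after their values were seen. The members and lists were chosen with earlier results of these data known. Alternatives covered cell filters, doublets, clustering, weighting, thinning, the floor, the scaling and the fold, and 5 more were added after seeing the data. Transcript windows and sequences come from GRCm38 (GENCODE) and promoters from RefSeq. Some members are counted in totals but not reported here by name.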

Additional observations from a re-analysis of the deposited data

Results flagged for a closer look

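For the nuclear members named here the log2 ratio of LPS over PBS had opposite signs in alveolar macrophage-like and monocyte-like cells, each with an interval clear of 0 and with at least 1.5-fold between the classes. With 1 library per group the difference between the classes was not tested. Uqcrfs1, the Rieske protein, was higher with LPS in alveolar macrophage-like cells (0.79) and lower in monocyte-like cells (-0.14), a difference of 0.93. The others had the reverse signs. The difference, alveolar macrophage-like minus monocyte-like, was -1.02 for Atp5g3 (-0.15 and 0.87), -0.84 for Ndufv2 (-0.14 and 0.70), -0.78 for Cox6b1 (-0.04 and 0.74), -0.73 for Uqcrb (-0.31 and 0.42) and -0.66 for Cox6a1 (-0.26 and 0.40). Under median-of-ratios scaling the alveolar macrophage-like values of Atp5g3, Ndufv2 and Cox6b1 turned positive (0.10, 0.11 and 0.21), and those of Uqcrb and Cox6a1 lay at -0.06 and -0.01. Ndufv2, a flavoprotein partner in the NADH-oxidizing part of complex I, was named after its values were seen.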

How the results depend on the processing

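No paired analysis was possible because each group is 1 library and no result comes from a test. No difference of the mitochondrial to nuclear ratio reversed its sign under any alternative run. The counts of members past the fold cannot reverse and were compared by size only. The log2 difference of the mitochondrial to nuclear ratio in alveolar macrophage-like cells ran from -0.96 to -0.81 for LPS against PBS over 19 alternatives (-0.95 with at least 1000 genes per cell, after thinning, and with unnamed clusters put back; -0.94 with the doublet share doubled, with members among the variable genes, and without cycling cells; -0.90 with cells weighted equally; -0.96 over all kept cells; -0.81 without the mitochondrial genes that have a copy over 5% of their windows, here the copied genes). For LPS + Reg3g against LPS it was 0.47 with at least 1000 genes, after thinning and without the copied genes, 0.43 with equal weights and 0.48 over all kept cells. In monocyte-like cells it was -0.79 (at least 1000 genes), -0.72 (equal weights), -0.96 (all kept cells, and cluster 7 alone) and -0.68 (without the copied genes) for LPS against PBS, and 0.47 (no cell filter), 0.54 (libraries clustered alone, and without the copied genes), 0.62 (equal weights) and 0.67 (cluster 7) for LPS + Reg3g against LPS. The nuclear members past the fold higher in alveolar macrophage-like cells with LPS numbered 18 over all kept cells, 25 under median-of-ratios or trimmed mean scaling and 0 at a fold of 2, and those lower numbered 1 under each of these. The mitochondrial members lower numbered 5 with a floor of 50 CPM and 4 at a fold of 2, and 1 was past the fold higher with Reg3g after thinning. In monocyte-like cells with LPS, nuclear members higher numbered 18 over all kept cells, 17 at a fold of 2 and 25 in cluster 7, and those lower 1 over all kept cells and 2 with a floor of 50 CPM, with subunits alone and at a fold of 2. The mitochondrial members lower numbered 6 over all kept cells, 0 at a fold of 2 and 5 in cluster 7. With Reg3g, the mitochondrial members higher numbered 1 without a cell filter or with at least 1000 genes, 6 in cluster 7, and 0 over all kept cells, with a floor of 50 CPM, under both scalings and at a fold of 2, and cluster 7 had 1 nuclear member higher and 4 lower. The causes were not tested, and shares over all genes were computed only for CPM at 1.5-fold and the floor of 10 CPM. For 61 named members the sign was followed over the alternatives of cells, clustering, weighting, thinning and scaling within a class. All kept cells together and cluster 7 alone were not part of this check. The sign held under each alternative checked for 48 and 60 members (LPS against PBS, alveolar macrophage-like and monocyte-like) and for 49 and 52 (LPS + Reg3g against LPS). No named member with a log2 ratio beyond 0.20 in size changed sign in it. The low counts of mt-Nd3, mt-Nd6 and mt-Atp8 limit their precision most.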

Other observations

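Cox6a2, the heart and muscle isoform of subunit 6a, was under the floor but had 7, 183 and 92 UMIs with PBS, LPS and LPS + Reg3g in alveolar macrophage-like cells and 1, 30 and 19 in monocyte-like cells. After thinning to 2000 UMIs, 0.0284%, 1.41% and 0.496% of alveolar macrophage-like cells had a Cox6a2 UMI, and 0 of 89, 0 of 84 and 2 of 66 lymphoid cells (upper limits of 4.06%, 4.3% and 10.5%), so these shares are not told apart from free RNA. Cox7a1 had 7, 70 and 54 UMIs in monocyte-like cells, and 0.163%, 0.628% and 0.65% of those cells had one after thinning. These shares lie under the upper limits of 6.1%, 4.3% and 5.44% in lymphoid cells and are likewise not told apart from free RNA.

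Cytochrome b and mt-Nd1 together with mt-Nd4 and mt-Co1 held 86.8%, 88.9% and 88.3% of mitochondrial member UMIs in alveolar macrophage-like cells and 86%, 89.3% and 88.3% in monocyte-like cells.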
